A study of Homo sapiens with 17 samples.

Results

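A group of 10 genes of the activator protein 1 (AP-1) family was followed in IMR90 ER:RAS cells, namely FOS, FOSB, FOSL1, FOSL2, JUN, JUNB, JUND, ATF3, MAFF and BATF3. They were chosen by symbol, and all 10 of them were among the 62754 genes of the count tables and among the 19473 genes with enough counts to be tested. IMR90 ER:RAS cells are a line of human lung fibroblasts infected with a retrovirus for an ER:RAS fusion of RASG12V. The drug 4-hydroxytamoxifen (4OHT) binds the oestrogen receptor (ER) part, which switches the oncogene on, and the cells become senescent. All 17 libraries came from this line, from cells given an siRNA by reverse transfection 1 day before 4OHT or its solvent control DMSO, and RNA was taken at day 7. A non-targeting siRNA was combined with DMSO in 5 libraries (DMSO siNT) and with 4OHT in 6 (4OHT siNT). The remaining 6 (4OHT siSMARCA4) had siRNA against SMARCA4, whose protein, BRG1, drives the SWI/SNF complexes that move nucleosomes. No library here combined DMSO with siSMARCA4, and no 4OHT-treated cells without the ER:RAS construct were measured, so the drug and the oncogene cannot be told apart. The labels also hold an siRNA number (2 or 4) and the letters V or VM, which they do not explain. VM marked all 6 libraries of 4OHT siNT but 3 of 6 with siSMARCA4 and 3 of 5 with DMSO. Nothing in the labels says that libraries came from separate cultures, so p-values measure the spread between these libraries, which may be technical.

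AP-1 is a family of dimers built from basic leucine zipper (bZIP) proteins. FOS proteins pair with JUN proteins, whereas JUN proteins can also pair with each other, and ATF3, BATF3 and the small MAF protein MAFF join related dimers, so the make-up of the pool decides which complexes can form. Several members are immediate early genes, whose transcripts appear within minutes of a growth or stress signal and decay quickly. RAS acts upstream of them through the ERK kinases, and AP-1 is known to bind enhancers of senescent fibroblasts.

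The promoters of 5 members are shown, those of the FOS and JUN proteins whose windows overlap no annotated protein-coding exon. Each is the 240 bases from 250 to 11 before the RefSeq start site, read 5′ to 3′ on the gene's strand (RefSeq, GRCh38.p14), which leaves out the bases transcribed from that start. Capitals mark matches to 4 motifs searched on both strands: the AP-1 site TGACTCA, the cyclic AMP response element TGACGTCA, the JUN/ATF variant TGACATCA and the TATA box TATAAA.
FOS (chr14:75278578-75278817, plus strand): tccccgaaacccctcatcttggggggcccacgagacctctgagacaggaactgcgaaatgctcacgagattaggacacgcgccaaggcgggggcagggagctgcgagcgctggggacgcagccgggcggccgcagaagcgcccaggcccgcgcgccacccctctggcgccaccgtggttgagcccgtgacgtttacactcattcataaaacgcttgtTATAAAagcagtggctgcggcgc
FOSB (chr19:45467746-45467985, plus strand): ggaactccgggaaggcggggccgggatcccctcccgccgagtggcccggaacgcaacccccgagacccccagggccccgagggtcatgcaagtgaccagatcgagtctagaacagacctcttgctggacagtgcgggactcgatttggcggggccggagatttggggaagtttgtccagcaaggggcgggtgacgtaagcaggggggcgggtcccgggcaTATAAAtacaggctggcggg
JUN (chr1:58784058-58784297, minus strand): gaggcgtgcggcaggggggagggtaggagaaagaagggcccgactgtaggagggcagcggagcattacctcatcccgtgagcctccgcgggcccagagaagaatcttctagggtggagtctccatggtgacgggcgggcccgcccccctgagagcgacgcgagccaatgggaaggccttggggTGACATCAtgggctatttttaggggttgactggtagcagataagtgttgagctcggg
JUNB (chr19:12791236-12791475, plus strand): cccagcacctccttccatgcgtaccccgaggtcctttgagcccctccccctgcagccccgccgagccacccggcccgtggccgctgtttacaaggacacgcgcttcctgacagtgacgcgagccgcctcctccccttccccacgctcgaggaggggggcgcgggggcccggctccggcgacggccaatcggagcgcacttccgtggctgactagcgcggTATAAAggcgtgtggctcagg
JUND (chr19:18281633-18281872, minus strand): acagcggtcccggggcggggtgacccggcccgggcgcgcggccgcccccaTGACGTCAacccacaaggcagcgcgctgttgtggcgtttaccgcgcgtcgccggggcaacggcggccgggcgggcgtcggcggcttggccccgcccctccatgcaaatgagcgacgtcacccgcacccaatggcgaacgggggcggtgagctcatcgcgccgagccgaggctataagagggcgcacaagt
FOS, FOSB and JUNB each held TATAAA close to the start, at positions -33 to -28, -30 to -25 and -31 to -26. JUN held TGACATCA at -67 to -60, and JUND held TGACGTCA at -200 to -193. Of 35116 RefSeq promoter windows of the same length, 10.6% held TATAAA, 2.29% TGACATCA, 1.57% TGACGTCA and 4.11% TGACTCA. RefSeq windows were given for 8 of the 10 members (FOSL1 and BATF3 had none). Those of FOSL2, MAFF and ATF3 are not printed, since all but 1, an ATF3 window, overlap annotated protein-coding exons. Of the overlapping windows, a MAFF window held TGACGTCA at -54 to -47 and an ATF3 window TGACATCA at -123 to -116. The other ATF3 window, left out as ATF3 is no FOS or JUN protein, held TATAAA at -230 to -225. The JUN window overlaps an exon of a noncoding gene, ENSG00000290013. Only exact matches were searched, so near matches to these motifs are not marked. A match is a description of letters, and binding was not measured here.

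Library totals ranged from 39.11 to 68.98 in units of 1e6 counts (53.0 ± 4.99 in DMSO siNT, 51.6 ± 7.30 in 4OHT siNT and 54.5 ± 7.31 in 4OHT siSMARCA4; SD). Levels are CPM, counts per 1e6 counts of a library scaled by trimmed mean of M values (TMM) factors, unless TPM is written. TPM is a share per 1e6 of gene counts, each divided by the joined length of the gene's exons, without TMM factors. Errors are SD between libraries. SMARCA4 was at 268 ± 13.2 CPM in 4OHT siNT and 88.05 ± 22.8 CPM in 4OHT siSMARCA4, a log2 fold change of -1.61 (edgeR, SE 0.13, adjusted p 5.14e-07), with no overlap of libraries. In DMSO siNT it was at 198.3 ± 19.25 CPM, so that SMARCA4 rose with 4OHT under siNT by 0.44 (edgeR, SE 0.13, adjusted p 0.00851). That call held in 28 of 29 alternatives. Of 11 fibroblast markers none averaged under 1 CPM in any group. Their summed level ran from 30420 to 38330 CPM in DMSO siNT, 21420 to 33060 in 4OHT siNT and 10750 to 20610 in 4OHT siSMARCA4, and 9 of the 11 were called lower by the knockdown, against 13.8% of all genes. Summed levels of 5 epithelial markers ran from 34.48 to 54.65 CPM in DMSO siNT, 3.36 to 5.31 in 4OHT siNT and 1.15 to 3.26 in 4OHT siSMARCA4. Most of the DMSO sum was KRT19 (38.1 ± 6.91 CPM). Those of 4 endothelial markers ran from 0.856 to 1.955, 3.95 to 5.94 and 2.05 to 4.46 CPM in the same order. Those of 5 leukocyte markers were at or under 30.43 CPM in every group and came almost wholly from CD68. Marker sums moved with the groups, and their part in the AP-1 values was not tested. In bulk RNA, fewer cells with a transcript and less transcript per cell cannot be told apart.

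DMSO siNT 2-1V was high in 5 of the 10 members, although its gap to the next library passed Dixon's limit for an outlying value in none of them. It was the highest DMSO library for FOS, FOSB, JUNB, JUND and ATF3, with FOS at 2.69 times, FOSB at 2.49 times, ATF3 at 2.41 times, JUNB at 1.84 times and JUND at 1.35 times the mean of the other 4. It was also highest for 7 of 15 other immediate early genes, against 22.6% of all genes tested. Members' values without it are given where it changed a call or an order.

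The comparison of 4OHT with DMSO under siNT addressed what differs once 4OHT is given to cells that carry ER:RAS. MAFF, JUNB, JUN, FOSB and JUND rose, and FOSL2, FOSL1 and BATF3 fell. Thus 5 members were called higher, where 27.0% of all genes tested were, and 3 lower, where 27.4% were (edgeR, adjusted p under 0.05). In all, 8 of 10 members were called against 54.4% of genes, and 9 had an unadjusted p under 0.05, against 58.8% of genes. Libraries of both groups did not overlap for 5 of 10 members (MAFF, JUN, JUNB, FOSL1 and FOSL2), against 39.6% of genes. The median log2 fold change was 0.26 over the members and 0.00 over all genes tested.

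**Figure D1:**
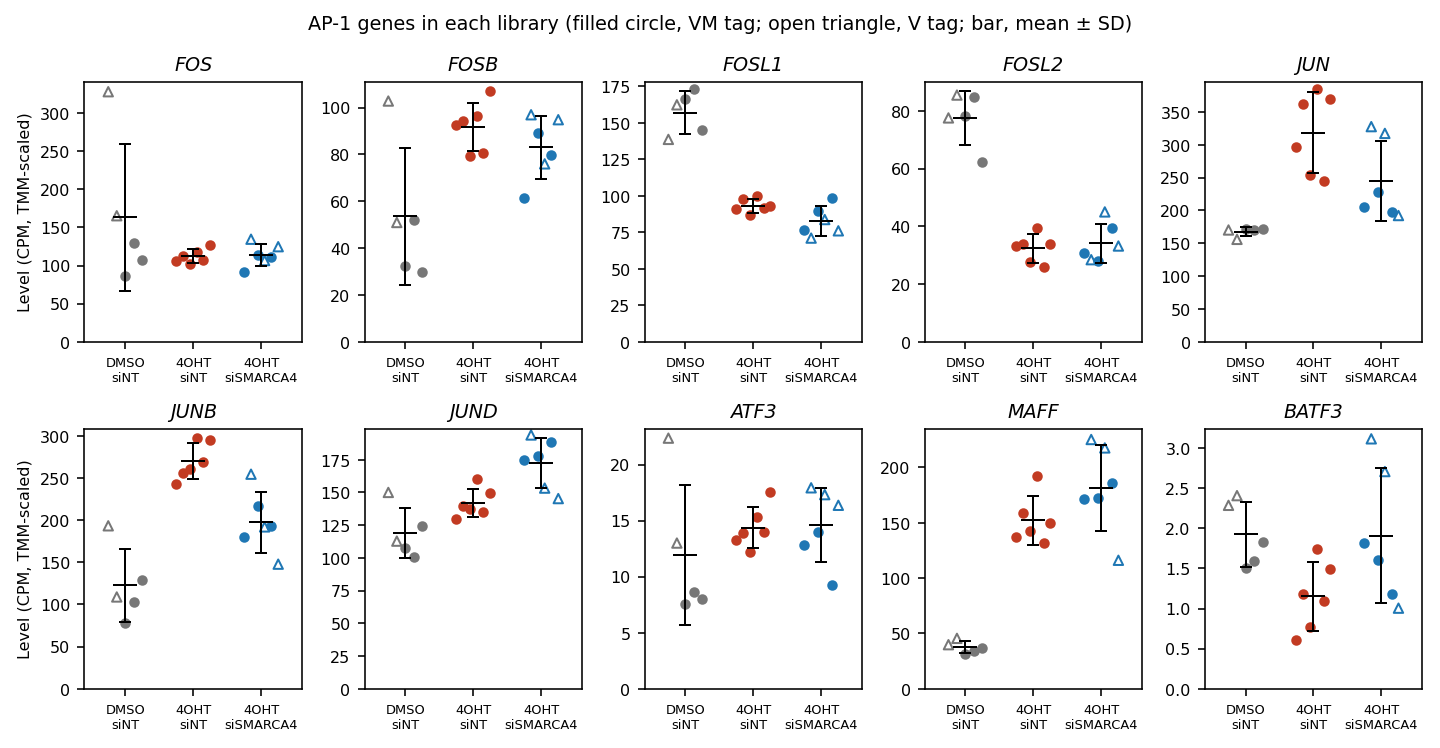
Level of each AP-1 gene (CPM, TMM-scaled, linear axis from 0) in every library, with 5 for DMSO siNT and 6 for each 4OHT group. Filled circles are VM libraries, open triangles V libraries, and the bar is the mean ± SD. MAFF, JUN and JUNB lie higher in 4OHT siNT than in every DMSO library, FOSL1 and FOSL2 lower, and the DMSO library highest for FOS (328 CPM) is 2-1V.

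Among the FOS proteins, FOSL1 and FOSL2 fell, FOSB rose and FOS was not called. FOSL1 (FRA-1, a FOS-related antigen that lacks the strong activation domain of FOS; chr11:65892049-65900573, minus strand) was at 138.7, 162.4, 166.4, 173.1 and 144.8 CPM in the DMSO libraries 2-1V, 2-2V, 2-2VM, 4-2VM and 4-3VM. In 4OHT siNT its lowest, median and highest levels were 86.7, 92.3 and 99.8 CPM. Every 4OHT library thus lay under every DMSO library, and FOSL1 fell by a log2 fold change of -0.75 (edgeR, SE 0.08, adjusted p 3.99e-07). FOSL2 (FRA-2; chr2:28392448-28417317, plus strand), the close relative of FOSL1, was at 77.6, 85.5, 78.1, 84.9 and 62.2 CPM in the same order. It ranged from 26.0 through a median of 33.5 to 39.5 CPM with 4OHT, again without overlap, a log2 fold change of -1.26 (edgeR, SE 0.13, adjusted p 1.5e-07). FOSL2 thus showed the largest fall among the 10 members in this comparison.

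FOSB (chr19:45467995-45475179, plus strand), an immediate early partner of JUN proteins, was at 102.8, 50.9, 32.2, 52 and 29.9 CPM in DMSO and at 79.5 to 106.9 CPM (median 93.5) in 4OHT siNT. The groups overlapped through DMSO 2-1V alone. FOSB rose by a log2 fold change of 0.78 (edgeR, SE 0.23, adjusted p 0.00889), which became 1.13 (adjusted p 1.43e-05) without 2-1V. The call was lost in the siRNA number 2 libraries taken alone, at 0.41 (adjusted p 0.344), a set in which 2-1V is 1 of 3 DMSO libraries. FOS (chr14:75278826-75282230, plus strand), the archetypal partner of JUN, was at 328, 165.3, 86.1, 128.9 and 107.5 CPM in DMSO. In 4OHT siNT it was far tighter, at 102.1 to 127.3 CPM (median 109.8). Its log2 fold change of -0.54 (edgeR, SE 0.23, adjusted p 0.0579) was not called. It became -0.15 (adjusted p 0.405) without 2-1V, and -0.73 (adjusted p 0.00716), -0.63 (0.0409) and -0.66 (0.0245) without DMSO 2-2VM, 4-2VM or 4-3VM, so that the call on FOS turned on which DMSO library was left out. With all libraries kept, FOS was called by DESeq2 (-0.55, adjusted p 0.0362), by edgeR with no filter on low counts (-0.57, adjusted p 0.0351) and with a minimum count of 30 (-0.56, adjusted p 0.0475).

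Within the JUN proteins, all 3 members rose. JUNB (chr19:12791486-12793315, plus strand), a JUN protein that can restrain the activity of JUN, was at 193.3, 108.9, 78.4, 103.3 and 129.1 CPM in DMSO. In 4OHT siNT its lowest, median and highest levels were 243.1, 264.8 and 297.4 CPM, all above DMSO, and it rose by 1.14 (edgeR, SE 0.18, adjusted p 2.03e-05). JUN (chr1:58776845-58784048, minus strand), the archetypal AP-1 subunit, was almost constant in DMSO, at 170.2, 155.9, 171.5, 170.4 and 171.0 CPM. With 4OHT it spread from 244.4 through a median of 329 to 384.5 CPM, again above every DMSO library, a log2 fold change of 0.92 (edgeR, SE 0.15, adjusted p 4.82e-05). JUND (chr19:18279694-18281622, minus strand), a member that is commonly abundant without stimulation, was at 150, 112.8, 107.5, 100.6 and 124.5 CPM in DMSO and 129.7 to 160.1 CPM (median 138.4) in 4OHT siNT. Its rise of 0.25 (edgeR, SE 0.10, adjusted p 0.0409) was small, and the groups overlapped through DMSO 2-1V alone. The rise was 0.32 (edgeR adjusted p 0.0095) without 2-1V, and 0.33 (0.00766) in VM libraries alone, where the groups did not overlap. This call held in 16 of 29 alternatives, whose values ran from 0.08 to 0.36. It was lost without DMSO 2-2V (adjusted p 0.133), 2-2VM (0.154) or 4-2VM (0.176), or without 4OHT siNT 4-1VM (0.0542), 4-2VM (0.0897), 2-3VM (0.0745) or 4-3VM (0.0731). With all libraries kept it was also lost with RLE scaling (0.0514), with no filter on low counts (0.127) or a minimum count of 30 (0.063), and with V or VM as a term (0.0518), and it was lost with siRNA number 2 (0.57) or 4 (0.0893) alone.

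MAFF changed most of all members. MAFF (chr22:38200767-38216507, plus strand), a small MAF protein without an activation domain of its own, was at 39.8, 45.6, 31.7, 34.5 and 37.0 CPM in DMSO. Its lowest, median and highest levels in 4OHT siNT were 132, 146 and 192 CPM. No library overlapped, and MAFF rose by 2.01 (edgeR, SE 0.15, adjusted p 1.95e-09), a fold change of 4.03. ATF3 (chr1:212565334-212620777, plus strand), a bZIP factor induced by stress, was at 22.4, 13.0, 7.53, 8.68 and 7.97 CPM in DMSO and 12.2 to 17.5 CPM (median 14.0) in 4OHT siNT. Its change of 0.27 (edgeR, SE 0.24, adjusted p 0.354) was not called, but without DMSO 2-1V it was 0.61 and called (adjusted p 0.00868). It was also called with V or VM as a term (0.69, adjusted p 0.00207). Calls with the label tag as a block (0.78, adjusted p 0.000183) and with siRNA number 4 alone (0.86, adjusted p 0.0156) are not separate from leaving out 2-1V. Number 4 alone does not hold that library, and no other library shares its tag, so the block fits it apart. BATF3 (chr1:212686417-212699840, minus strand), a bZIP factor best known from dendritic cells, was the scarcest member, with 32 to 185 counts per library. It was at 2.29, 2.41, 1.51, 1.59 and 1.83 CPM in DMSO and 0.614 to 1.74 CPM (median 1.14) in 4OHT siNT, and fell by 0.74 (edgeR, SE 0.30, adjusted p 0.0425). The BATF3 call held in 18 of 29 alternatives. It was lost without DMSO 2-1V (adjusted p 0.0817), 2-2V (0.0905) or 4-3VM (0.0558), or without 4OHT siNT 2-1VM (0.0933), 4-1VM (0.0601), 2-2VM (0.0884) or 2-3VM (0.0583). With the label tag as a block BATF3 was at -0.45 and not called (adjusted p 0.305), nor was it with siRNA number 4 alone (-0.26, adjusted p 0.625) or with V or VM as a term (-0.50, adjusted p 0.165).

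**Figure D2:**
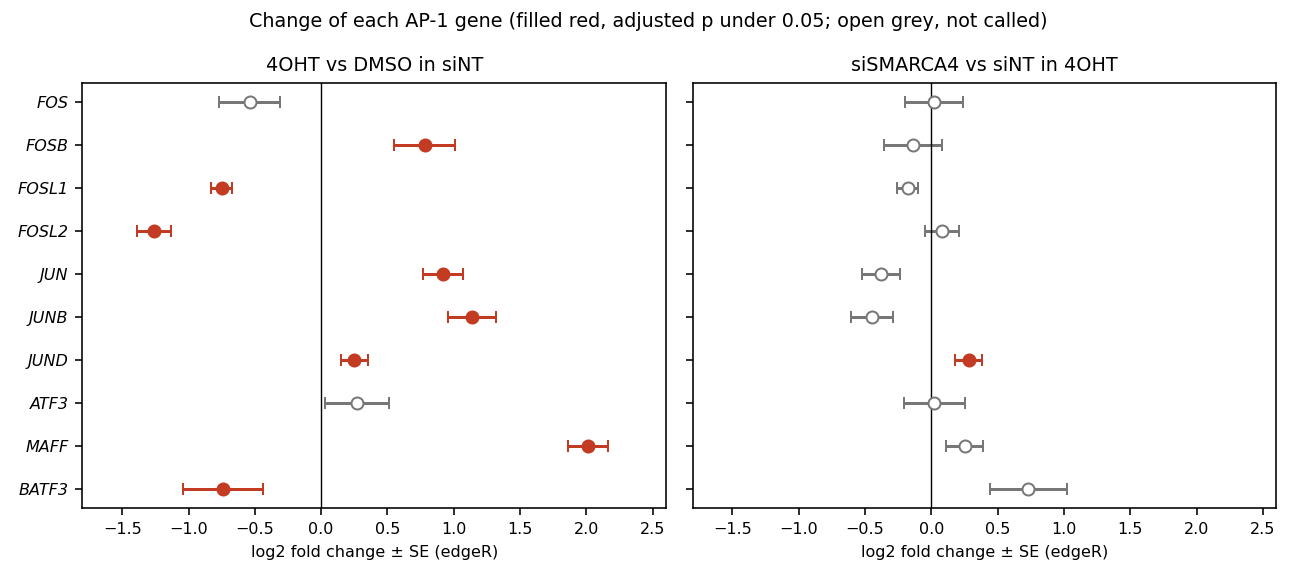
log2 fold change ± SE of each AP-1 gene (edgeR), for 4OHT against DMSO under siNT (left, n = 6 and 5) and siSMARCA4 against siNT under 4OHT (right, n = 6 and 6), both on the same axis. Filled red points have an adjusted p under 0.05. On the left, MAFF lies farthest to the right at 2.01 and FOSL2 farthest to the left at -1.26, and on the right JUND alone is filled, at 0.28.

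Since all 4OHT siNT libraries were VM, the same contrast was also fitted in VM libraries alone (6 against 3). There FOS was not called (0.03, edgeR adjusted p 0.873), with 4OHT siNT at 102.1 to 127.3 CPM inside the 86.1 to 128.9 CPM of DMSO. ATF3 was higher by 0.81 (adjusted p 0.000407) and its libraries did not overlap, at 12.2 to 17.5 against 7.53 to 8.68 CPM. FOSB was higher by 1.24 (adjusted p 6.2e-05), also without overlap. BATF3 was at -0.54 (adjusted p 0.134) and no longer called. In these libraries 6 members were called higher against 23.5% of genes and 2 lower against 27.0%, and 8 did not overlap against 44.4% of genes.

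The comparison of siSMARCA4 with siNT under 4OHT addressed how senescent cells differ when SMARCA4 is depleted. JUND rose, and no other member passed the test. That is 1 member called higher, where 10.4% of all genes tested were, and 0 lower, where 13.8% were (edgeR). At an unadjusted p under 0.05 there were 5 members (BATF3, JUND, JUNB, FOSL1 and JUN), against 36.2% of genes. In either direction 24.2% of genes were called by edgeR. DESeq2 called 2 members higher (JUND and BATF3, the latter at adjusted p 0.046) and 2 lower (JUNB at 0.0366 and JUN at 0.0492). In either direction DESeq2 called 26.7% of genes. In CPM no member was without overlap of its libraries, where 12% of genes were (2343 of 19473). In TPM, JUNB did not overlap, at 245.6 to 425.2 with siSMARCA4 against 451.9 to 531 with siNT. The share of all genes that separated in TPM was not counted. The median log2 fold change was 0.02 over the members and -0.02 over all genes.

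JUND was at 145.3, 176.5 and 193.9 CPM (lowest, median, highest) in 4OHT siSMARCA4, against 129.7, 138.4 and 160.1 CPM in 4OHT siNT. Only the siSMARCA4 libraries 4-2V and 4-3V fell within the siNT range. The log2 fold change was 0.28 (edgeR, SE 0.10, adjusted p 0.0397). It stayed positive in all 29 alternatives (0.16 to 0.48) but was called in 18 of them. Leaving out 4OHT siNT 2-1VM, 4-1VM, 2-2VM, 2-3VM or 4-3VM gave adjusted p of 0.0858, 0.0706, 0.0671, 0.0712 and 0.0511, and leaving out siSMARCA4 2-1VM, 2-3V, 2-3VM or 4-2VM gave 0.0691, 0.0914, 0.074 and 0.0874. The call was also lost with siRNA number 4 alone (0.16, adjusted p 0.531) and with V or VM as a term (0.26, adjusted p 0.0765).

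JUNB and JUN had lower means under the knockdown without passing the test. JUNB was at 147.8, 192.7 and 254.5 CPM in siSMARCA4 (lowest, median, highest), where 1 library, 2-3V, reached into the siNT range of 243.1 to 297.4 CPM. Its log2 fold change was -0.45 (edgeR, SE 0.16, adjusted p 0.0521), and 9 of 29 alternatives called it. Those included leaving out DMSO 2-1V (adjusted p 0.0183), DMSO 2-2VM (0.0303) or siSMARCA4 2-3V (0.03). JUN was at 192.2, 216.6 and 327.6 CPM in siSMARCA4 and 244.4 to 384.5 CPM in siNT, a log2 fold change of -0.38 (edgeR, SE 0.14, adjusted p 0.0636). It was called without 4OHT siNT 2-2VM (0.0394) or 2-3VM (0.0383), or without siSMARCA4 2-3V (0.0216) or 4-2V (0.0218). Those siSMARCA4 libraries, both V, had the highest JUN of their group, and 4-3V, also V, had the lowest.

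In the VM libraries alone (3 against 6), all 3 JUN proteins separated. JUN was at 198.1 to 228 CPM in siSMARCA4 against 244.4 to 384.5 in siNT, a log2 fold change of -0.58 (edgeR adjusted p 0.00824). JUNB was at 180.1 to 217.3 against 243.1 to 297.4 CPM, -0.44 (adjusted p 0.0325). JUND was at 175.0 to 188.7 against 129.7 to 160.1 CPM, 0.36 (adjusted p 0.0081). Thus 1 member was called higher and 2 lower among VM libraries, against 11.6% and 15.3% of genes, and 3 of 10 members did not overlap, against 33.5% of genes. The V libraries could not be compared on their own, since 4OHT siNT had none.

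None of the 4 FOS proteins was called under the knockdown. FOSL1 was at 71.0, 80.2 and 98.7 CPM in siSMARCA4 (lowest, median, highest), a log2 fold change of -0.18 (edgeR, SE 0.08, adjusted p 0.123), and was called only without siSMARCA4 4-2VM (-0.23, adjusted p 0.0395) among the 29 alternatives. In 4 of the 6 siSMARCA4 libraries FOSL1 lay under every siNT library (86.7 to 99.8 CPM). FOS at 91.9 to 134.5 CPM, FOSB at 61.2 to 96.9 CPM and FOSL2 at 28.1 to 45 CPM gave log2 fold changes of 0.02 (SE 0.22), -0.14 (SE 0.22) and 0.08 (SE 0.13), none of them called in any alternative. An interval of 2 SE to each side ran from -0.34 to -0.01 for FOSL1, which leaves out 0, and from -0.43 to 0.47 for FOS, -0.59 to 0.30 for FOSB and -0.17 to 0.33 for FOSL2.

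MAFF, ATF3 and BATF3 were not called either. MAFF was at 116.1, 179.2 and 225.2 CPM in siSMARCA4, a log2 fold change of 0.25 (edgeR, SE 0.14, adjusted p 0.187), and became 0.35 (adjusted p 0.0264) without siSMARCA4 4-3V, its lowest library, and 0.51 (adjusted p 0.0262) with siRNA number 2 alone. BATF3 was at 1.00 to 3.12 CPM (median 1.71), a log2 fold change of 0.73 (edgeR, SE 0.29, adjusted p 0.0711), and was called without siSMARCA4 4-3V (0.86, adjusted p 0.0302) or 4OHT siNT 4-2VM (0.89, adjusted p 0.0411). The siSMARCA4 libraries highest for BATF3, 2-3V and 4-2V, were both V, but so was the lowest for BATF3, 4-3V. In VM libraries alone its value was 0.43 (adjusted p 0.297). ATF3 was at 9.24 to 17.9 CPM (median 15.2), and its log2 fold change was 0.02 (edgeR, SE 0.23, adjusted p 0.958).

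The knockdown libraries carried siRNA numbers 2 and 4, and siNT libraries with the same number were set against them (3 against 3). The labels do not say that the number on an siNT library matches that of an siSMARCA4 library, so the values by number rest on that assumption. The V tag also fell unevenly, on siSMARCA4 2-3V with number 2 but on 4-2V and 4-3V with number 4, while all siNT libraries here were VM. Number and tag can thus not be fully told apart. SMARCA4 was at -1.62 with number 2 and -1.59 with number 4, a difference of 0.03 (edgeR, SE 0.27, adjusted p 0.969). With number 2, JUND (0.45, edgeR adjusted p 0.00803) and BATF3 (a fold change of 2.67, adjusted p 0.0246) were called higher, so 2 of 10 members against 21.4% of genes. With number 4, JUNB (-0.68, adjusted p 0.00728) and JUN (-0.66, adjusted p 0.0361) were called lower, 2 of 10 against 18.8% of genes. The test of the difference between numbers called no member, with edgeR adjusted p from 0.257 to 0.992, where 1.23% of 18275 genes were called. Unadjusted p of the difference were 0.0343 for JUND, 0.0399 for BATF3, 0.042 for JUNB and 0.0478 for JUN. JUN also separated by number among the siNT libraries, at 296.3, 253.5 and 244.4 CPM with number 2 and 361.8, 384.5 and 369.7 CPM with number 4. So did FOS, FOSB, FOSL1, FOSL2, JUND, MAFF and BATF3, but not JUNB or ATF3. Among siNT libraries every member was higher with number 4, by 0.11 (FOSL1) to 0.85 (BATF3), with JUN at 0.49. None of these differences was called (edgeR adjusted p 0.146 to 0.591). The share of all genes that separated by number was not counted.

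**Figure D3:**
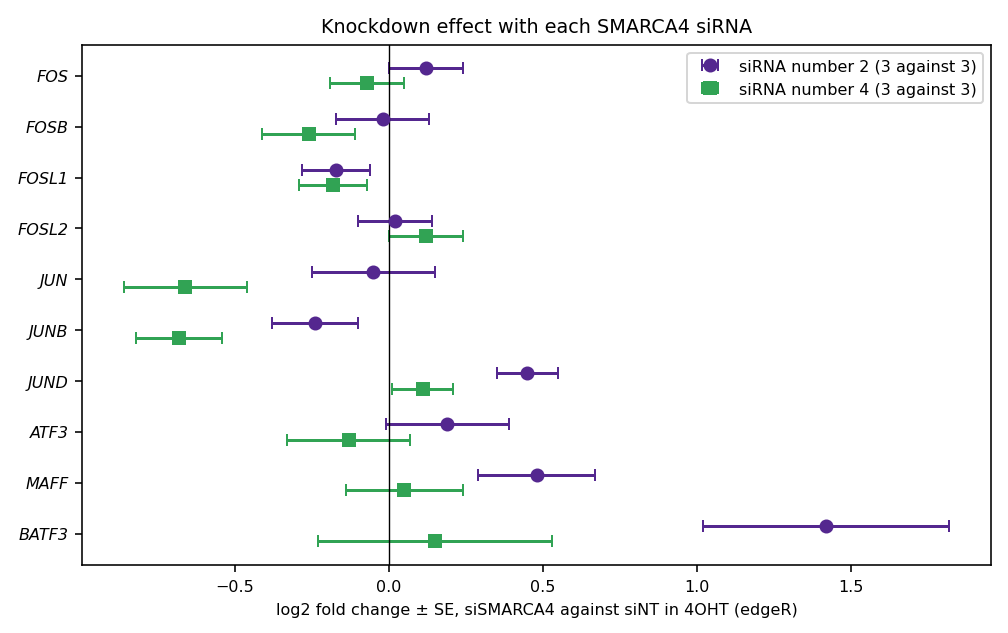
log2 fold change ± SE of each AP-1 gene in siSMARCA4 against siNT under 4OHT (edgeR, 1 fit of 12 libraries), with siRNA number 2 (circles) and number 4 (squares), 3 against 3 libraries each. BATF3 (a fold change of 2.67) and JUND (0.45) lie to the right with number 2, and JUNB (-0.68) and JUN (-0.66) to the left with number 4. No difference between numbers was called.

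Set against DMSO siNT, the 4OHT siSMARCA4 libraries had MAFF (2.27), JUNB (0.69), JUN (0.54), FOSB (0.63) and JUND (0.53) higher and FOSL2 (-1.19) and FOSL1 (-0.93) lower on the log2 scale. So 5 members were called higher against 26.5% of genes and 2 lower against 28.6% (edgeR), or 7 in either direction against 55.1%, and 8 had an unadjusted p under 0.05, against 59.4% of genes. Libraries did not overlap for 4 members (MAFF, JUN, FOSL1 and FOSL2), against 36.3% of genes. FOSB, JUNB and JUND overlapped through DMSO 2-1V alone. The other DMSO libraries reached 52, 129.1 and 124.5 CPM, and siSMARCA4 began at 61.2, 147.8 and 145.3 CPM. The share of all genes without overlap once 2-1V is left out was not counted. BATF3 was at -0.01 (SE 0.29, adjusted p 0.981), FOS at -0.52 (SE 0.23, adjusted p 0.0668) and ATF3 at 0.30 (SE 0.24, adjusted p 0.311). Without DMSO 2-1V, FOS was at -0.13 (adjusted p 0.488), and ATF3 was at 0.63 and called (adjusted p 0.00649). FOS was also called without DMSO 2-2VM (adjusted p 0.0089), 4-2VM (0.0485) or 4-3VM (0.0281), by DESeq2 (0.0467) and with V or VM as a term (0.0321). Without DMSO 2-1V, FOSB was at 0.99 (adjusted p 5.45e-05), and in VM libraries alone at 1.00 (0.000957). The FOSB call (adjusted p 0.0285) was lost with siRNA number 2 alone (0.41, adjusted p 0.333), with only these groups in the fit (0.0654), without DMSO 2-2V (0.0597), 2-2VM (0.0854), 4-2VM (0.0542) or 4-3VM (0.0741), or without siSMARCA4 2-3V (0.0564) or 4-3V (0.0515). In VM libraries alone JUN was at 0.29 and not called (adjusted p 0.162). JUN was not called with siRNA number 4 alone (0.46, adjusted p 0.0959) or with the label tag as a block (0.48, adjusted p 0.0644) either. ATF3 was called with that block (0.50, adjusted p 0.00631), in VM libraries alone (0.56, adjusted p 0.0123) and with number 4 alone (0.77, adjusted p 0.0276). None of these settings draws on DMSO 2-1V, so they are not separate from leaving it out. This comparison shares its libraries with both others, so its values are not separate evidence.

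Compared per joined exon length (TPM), the member with the highest mean passed from FOSL1 in DMSO siNT to JUNB in 4OHT siNT. FOSL1 stood above JUNB in 4 of 5 DMSO libraries, the other being 2-1V. In CPM, which takes no account of length, JUN had the highest mean in both groups (167.8 and 318.4 CPM). In DMSO the order was FOSL1 (318 ± 42.7 TPM), JUNB (254 ± 91.0), JUND (235 ± 39.5), FOS (196.5 ± 120) and JUN (176 ± 10.4), and the ranges of neighbours in this order overlapped. Without 2-1V the order was FOSL1 (326), JUND (218), JUNB (216), JUN (175) and FOS (146 ± 47.4), and with it FOS stood above JUN in 2 of 5 libraries. FOSL2 (41.5 ± 7.22), FOSB (37.1 ± 20.9), MAFF (25.7 ± 4.58), ATF3 (11.4 ± 6.23) and BATF3 (2.86 ± 0.705) followed, of which FOSL2 overlapped with FOSB and FOSB with MAFF. With 4OHT siNT, JUNB led at 488 ± 32.5 TPM in all 6 libraries, ahead of JUN (290 ± 53.0), JUND (243 ± 15.5), FOSL1 (164 ± 7.20), FOS (116 ± 8.28) and MAFF (89.6 ± 11.9). The ranges of JUN and JUND overlapped there, as did those of FOS and MAFF. FOSB (54.7 ± 5.99), FOSL2 (14.95 ± 2.23), ATF3 (11.9 ± 1.40) and BATF3 (1.47 ± 0.525) closed the order, with FOSL2 and ATF3 overlapping.

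Under siSMARCA4 the order changed in 1 place. JUNB (345 ± 60.2 TPM) was followed by JUND (286 ± 30.3) and JUN (217 ± 58.6), so JUND stood above JUN in 5 of 6 libraries although the ranges overlapped. FOSL1 (140 ± 18.6), FOS (114 ± 10.7), MAFF (104 ± 24.4), FOSB (47.6 ± 6.04), FOSL2 (15.3 ± 3.58), ATF3 (11.7 ± 2.72) and BATF3 (2.39 ± 1.08) kept their places, and the ranges of neighbours overlapped except between MAFF and FOSB, FOSB and FOSL2, and ATF3 and BATF3.

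The summed level of the 10 members was 1298 ± 268 TPM in DMSO siNT, 1475 ± 117 in 4OHT siNT and 1282 ± 159 in 4OHT siSMARCA4, with overlapping ranges. DMSO overlapped with 4OHT siNT (1357 to 1643 TPM) through 2-1V alone, at 1740 TPM. Without 2-1V the DMSO sum was 1188 ± 119.8 TPM. The 4 FOS proteins made up 39.4% to 48.2% of the sum in DMSO, 22.4% to 24.9% in 4OHT siNT and 21.2% to 30.2% in 4OHT siSMARCA4. The 3 JUN proteins made up 48.4% to 57.7%, 68.3% to 70.2% and 62.4% to 69.2%. DMSO did not overlap with either 4OHT group in these shares. FOSL1 alone went from 25.2 ± 5.58% to 11.1 ± 0.659%, and JUNB from 19.3 ± 3.52% to 33.2 ± 1.80%. Within 4OHT, the JUNB share was 30.8% to 35.7% with siNT and 24.1% to 29.2% with siSMARCA4, and the JUND share 15.95% to 17.4% and 19.2% to 24.9%, neither pair overlapping. The TPM of JUND itself overlapped, at 230.7 to 271.1 with siNT and 228.9 to 307.3 with siSMARCA4. A share also moves when other members move, and no figure for all genes stands beside these separations. These shares are descriptions of transcripts, carry no test, and say nothing of protein or of dimers.

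**Figure D4:**
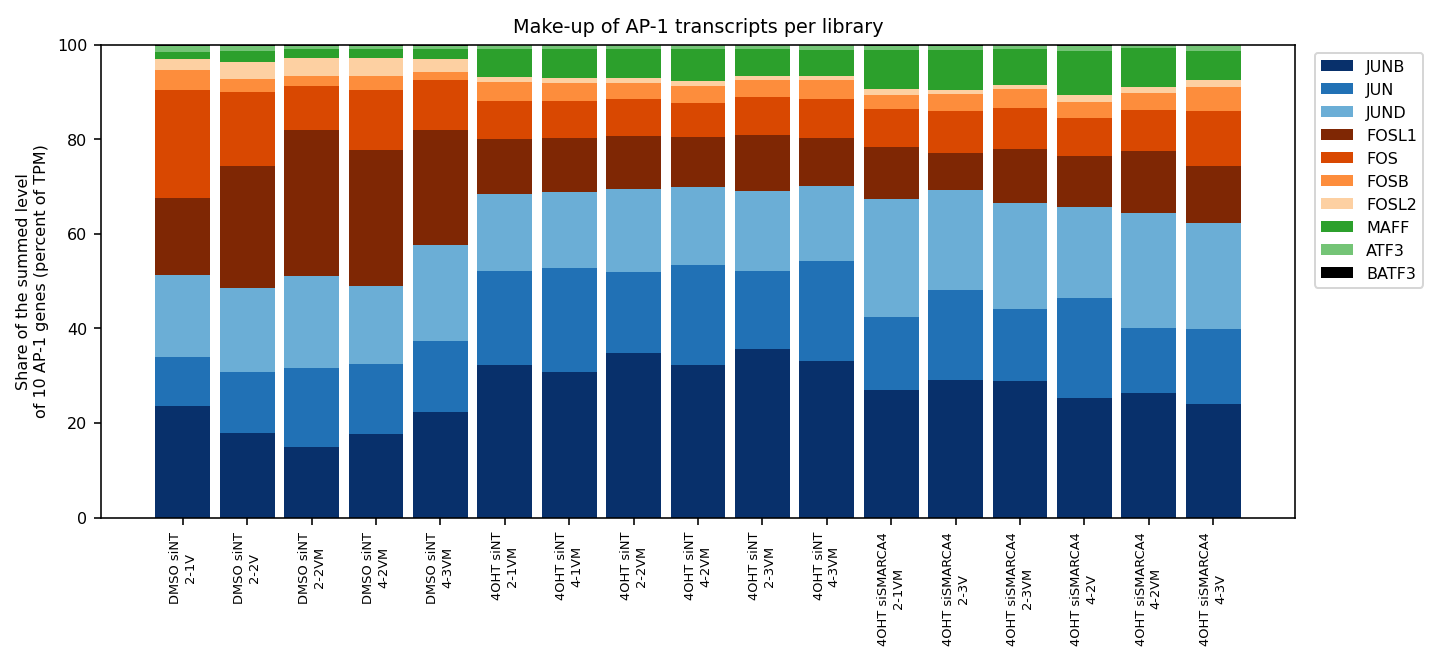
Share of each AP-1 gene in the summed level of the 10 genes (percent of TPM), 1 stacked bar per library, labelled by group and replicate. Blues are JUN proteins, browns and oranges FOS proteins, greens MAFF and ATF3, and black BATF3. The 4 FOS proteins fill 39.4% to 48.2% of the DMSO bars and 22.4% to 24.9% of the 4OHT siNT bars.

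FOSL1 and JUNB were also set beside all other genes by the correlation of log2 CPM across the 17 libraries (13215 genes compared), which all share these groups. The genes most like FOSL1 were JADE2 (Pearson r 0.971), EPS8L2 (0.970), ALS2CL (0.968), ANK1 (0.967) and SORBS3 (0.966). SORBS3 went from 109 CPM in DMSO siNT to 44.97 in 4OHT siNT and 36.8 in 4OHT siSMARCA4 (means). Those most like JUNB were GOLGA5 (0.938), CTSK (0.931), PLK2 (0.923), TMEM100 (0.911) and NFKBIE (0.911). CTSK, which encodes cathepsin K, went from 29.8 to 87.4 and 57.4 CPM.

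Other AP-1 and related bZIP factors numbered 15, of which 14 were tested. With 4OHT, 5 rose and 1 fell, where 27.0% and 27.4% of all genes did (median log2 fold change 0.16, against 0.00 over all genes). The small MAF genes MAFG (1.05, edgeR, SE 0.10, adjusted p 4.35e-08) and MAFK (1.21, SE 0.18, adjusted p 1.73e-05), relatives of MAFF, rose without overlap of libraries. JDP2, a repressor that dimerises with JUN, fell from 28.2 ± 5.05 to 12.2 ± 0.983 CPM (-1.21, SE 0.12, adjusted p 1.05e-07). Under the knockdown 4 rose and 2 fell, against 10.4% and 13.8% of all genes (median 0.26, against -0.02). Those that rose included ATF4, a factor of the integrated stress response (0.35, SE 0.08, adjusted p 0.00326). MAFA rose by 2.00 (SE 0.42, adjusted p 0.00252) but averaged only 0.823 CPM. Against DMSO, siSMARCA4 libraries had 7 higher and 2 lower, against 26.5% and 28.6% of all genes (median 0.35). The smallest adjusted p, not the largest changes, were those of MAFG (1.32), JDP2 (-0.96) and MAFK (1.43).

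Of 23 kinases and regulators upstream of AP-1, 8 rose and 6 fell with 4OHT (median 0.04), against 27.0% and 27.4% of all genes. RPS6KA3, which encodes the ERK-activated kinase RSK2, rose from 51.7 ± 4.39 to 151 ± 13.3 CPM (1.55, edgeR, SE 0.09, adjusted p 2.58e-11). Its relative RPS6KA1 rose by 1.08 (SE 0.14, adjusted p 2.8e-06). ELK3, an ETS partner of serum response factor, fell by 0.68 (SE 0.10, adjusted p 6.77e-06). Under the knockdown 2 rose and 3 fell (median -0.02), against 10.4% and 13.8% of all genes. RPS6KA3 rose again, to 224 ± 21.8 CPM (0.56, SE 0.08, adjusted p 8.75e-05), whereas MAPK3, which encodes ERK1, fell by 0.50 (SE 0.09, adjusted p 0.000901) and RPS6KA1 fell by 0.53 (SE 0.13, adjusted p 0.00714). Against DMSO, 7 were higher and 6 lower with siSMARCA4 (median 0.04), against 26.5% and 28.6% of all genes, among them RPS6KA3 (2.12), MAPK3 (-0.86) and MAP2K4 (-0.70).

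Other immediate early genes did not move in 1 direction. Of 15, 5 rose and 6 fell with 4OHT (median -0.09), against 27.0% and 27.4% of all genes. Under the knockdown 5 rose and 6 fell as well (median -0.10), against 10.4% and 13.8%. With 4OHT, IER3 rose from 114 ± 21.1 to 1098 ± 180 CPM (3.27, edgeR, SE 0.15, adjusted p 2.19e-12). CCN1, a matrix protein gene, fell from 686 ± 33.7 to 239 ± 20.2 CPM (-1.52, SE 0.08, adjusted p 1.63e-11), and KLF4 fell by 2.51 (SE 0.17, adjusted p 6.93e-10). The knockdown lowered IER5 (-0.81, SE 0.12, adjusted p 0.000186) and raised KLF6 (0.38, SE 0.08, adjusted p 0.00195) and NR4A2 (0.94, SE 0.20, adjusted p 0.00259). Against DMSO, 4 were higher and 6 lower with siSMARCA4 (median 0.00), against 26.5% and 28.6% of all genes, with IER3 at 3.81, CCN1 at -1.85 and NR4A3 at 2.96.

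Known AP-1 target genes rose with 4OHT in 12 of 14 tested, and 1 fell (median 2.22), where 27.0% and 27.4% of all genes did. CXCL8, which encodes a neutrophil chemokine, went from 4.11 ± 1.08 to 1547 ± 357 CPM (8.55, edgeR, SE 0.28, adjusted p 4.83e-14). The urokinase gene PLAU went from 929 ± 73.0 to 4410 ± 193 CPM (2.25, SE 0.08, adjusted p 1.1e-13), and MMP3 from 4.55 ± 1.91 to 673 ± 43.2 CPM (7.20, SE 0.29, adjusted p 4.89e-13). Under the knockdown 5 rose and 3 fell (median 0.12), against 10.4% and 13.8% of all genes. MMP10 (2.23, SE 0.23, adjusted p 6.36e-06), MMP3 (1.45, SE 0.20, adjusted p 9.53e-05) and CXCL8 (1.09, SE 0.18, adjusted p 0.000388) rose without overlap of libraries. Against DMSO, 11 were higher and 1 lower with siSMARCA4 (median 2.47), against 26.5% and 28.6% of all genes. The smallest adjusted p, not the largest changes, were those of CXCL8 (9.65), PLAU (2.34) and MMP3 (8.66). Many of these genes also belong to the secretory response of senescent cells, and no measurement here ties their change to an AP-1 protein. The list was chosen with earlier results of these data known, so its counts beside all genes are a description.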

How the data were processed

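RNA was poly(A)-selected, made into strand-specific libraries and sequenced in paired ends. For every library the authors deposited expected counts, estimates of read pairs for each gene and repeat locus, rounded to whole values without normalisation. They had trimmed reads with Cutadapt 4.7, aligned them to GRCh38 with HISAT2 (2.2.1 in the submitters' processing notes), keeping up to 100 alignments per pair, and counted with TElocal in its reverse-stranded mode, which shares multi-mapping pairs by maximum likelihood. Their methods name Ensembl release 100 for genes, whereas all 62700 genes of GENCODE 44 were among the identifiers of the tables. Positions, symbols and exon lengths were taken from GENCODE 44. Because counting used strand, pairs from genes on the opposite strand (ERCC1 at FOSB, HOOK2 at JUNB, PLA2G6 at MAFF and FOSL2-AS1 at FOSL2) were counted apart, but ENSG00000270640 overlaps FOSL2 on the same strand, so the split between these is uncertain.

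From the counts, repeat loci were summed per subfamily, rows were kept by filterByExpr (minimum count 10, minimum total 15), which left 19473 genes and 1026 subfamilies, and libraries were scaled by TMM (factors 0.949 to 1.081). All 17 libraries entered 1 quasi-likelihood fit (edgeR 4.0.16, R 4.3.3) with a term for each group. Adjusted p are Benjamini-Hochberg values over all genes tested, and a call is an adjusted p under 0.05. SE is the log2 fold change divided by the square root of F. TPM divided counts by the union of a gene's exons and used no TMM factors. That union can be longer than any 1 transcript, so the order of members in TPM depends on it. The siRNA numbers were compared by an interaction in the 12 4OHT libraries. The steps were tested on simulated data. Libraries were grouped by their labels. No 2 libraries of a group agreed within sampling noise (smallest chi-square per degree of freedom 5.18). BATF3 had 32 to 185 counts per library and every other member 434 or more. The members, the gene lists and the comparisons were chosen with earlier results of these data known, and the ranges within VM libraries were added after the data were seen. The text names every member, SMARCA4, the 3 genes per list and contrast with the smallest adjusted p, and the 5 genes most correlated with FOSL1 and with JUNB (mean of 1 CPM or more, log2 with a prior count of 2), except 1 gene that is not reported here. Alternatives were RLE scaling, DESeq2 1.42.0, no filter, a minimum count of 30, genes alone, only the groups compared, the tag as a block, the siRNA number as a term or each number alone, V or VM as a term, VM alone, and leaving out each library. Tables and plots were made in Python 3.11.15 (pandas 2.3.3, matplotlib 3.10.9).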

Additional observations from a re-analysis of the deposited data

Results flagged for a closer look

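Of 33 sets of libraries tested (each member and SMARCA4 in each group), 1 had a library far from the others. JUN in DMSO siNT was at 155.9 CPM in 2-2V, whereas the nearest of the other 4 was at 170.2 CPM, a gap of 0.916 of the whole range. The limit used is one that chance passes in about 1 of 20 sets. The DMSO range of JUN is narrow, and JUN was called higher with 4OHT in all 29 alternatives, including the fit without that library.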

How the results depend on the processing

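Over 29 alternatives, 17 of which each left out 1 library, MAFF, JUNB, JUN, FOSL1 and FOSL2 kept their calls in 4OHT against DMSO. Under the knockdown the count of members called higher was 1 and became 3 with siRNA number 2 alone, 0 with number 4 alone, 0 with V or VM as a term and 2 with DESeq2, and 0 to 3 when 1 library was left out. The count called lower was 0 and became 1 with the 2 groups alone in the fit, 1 with the replicate block, 1 with number 4 alone, 2 with V or VM as a term, 2 in VM libraries alone and 2 with DESeq2, and 0 to 2 when 1 library was left out. Of all genes, 24.2% were called in either direction under the knockdown in the main fit, 22.9% with number 2 alone and 6.02% with number 4 alone. The share was 27.4% with V or VM as a term, 26.9% in VM libraries alone and 26.7% with DESeq2. It was 26.1% with the 2 groups alone, 22.8% with the replicate block, and 19.1% to 27.1% when 1 library was left out. With 4OHT, 5 members higher became 3 with number 2 alone, where 53.1% of genes were called in either direction, against 54.4%. The labels do not say that a replicate tag marks a shared batch. Deviations of libraries with the same tag correlated at -0.105 to 0.297 over 6 pairs in the knockdown comparison (2 of them over 0.1) and at -0.45 to 0.531 over 6 pairs with 4OHT (4 over 0.1), so the tags were not taken to pair libraries. With the replicate block, all-gene calls under the knockdown were 1882 higher and 2562 lower, against 2018 and 2685, and JUNB was called lower (-0.48, edgeR adjusted p 0.0313). DMSO 2-1V shares its tag with no library, and siSMARCA4 2-3V and 4-3V share theirs only with each other. The block therefore leaves these libraries out of the group differences. The block also ended the calls on BATF3 with 4OHT and on JUN in siSMARCA4 against DMSO, and ATF3 was called in both comparisons with DMSO. It changed no other call on a member.

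Some uncalled values changed sign. Under the knockdown FOS was at -0.17 with the block, -0.03 with number 4, -0.30 with V or VM as a term, -0.07 in VM libraries, and -0.03 to 0.07 without 1 library. ATF3 was at -0.28, -0.09, -0.39 and -0.24 in the same settings and -0.04 to 0.13 without 1 library. FOSB was at 0.01 with number 2, and FOSL2 at -0.02 (without siSMARCA4 4-2V) to 0.14 without 1 library. With 4OHT, FOS went from -0.54 in the main fit to 0.03 in VM libraries, and ATF3 from 0.27 to -0.16 with number 2. BATF3 in siSMARCA4 against DMSO was at 0.00 with genes alone, 0.01 with the block, 0.08 with number 2 and -0.20 to 0.12 without 1 library. The causes were not tested. Of the other named values, 1122 stayed as reported and 8 lost their call, each with number 4 alone, among them ATF4, KLF6, MAFA, MAPK3, NR4A2 and RPS6KA1 under the knockdown, and SMARCA4 with 4OHT. Number 4 alone called 6.02% of all genes under the knockdown, against 24.2% in the main fit, and 43% with 4OHT, against 54.4%. Depth limits BATF3 most, at 32 to 185 counts per library.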

Other observations

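Among the related bZIP genes counted above but not named there, NFE2L2, which encodes the antioxidant factor NRF2 and pairs with small MAF proteins, was at 104 ± 17.7 CPM in DMSO siNT, 106 ± 9.74 in 4OHT siNT and 132 ± 10.6 in 4OHT siSMARCA4. It rose under the knockdown by a log2 fold change of 0.32 (edgeR, SE 0.09, adjusted p 0.0182). The large MAF gene MAF fell there by -0.54 (edgeR, SE 0.18, adjusted p 0.0373), from 1.56 ± 0.295 to 1.07 ± 0.162 CPM. These genes were singled out after their values were seen. BATF was listed at 0 in all 5 DMSO libraries and at most at 0.0732 CPM elsewhere, and was too low to test.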
